A study of Mus musculus with 6 samples.

Results

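The interferon-stimulated genes described here are 34 genes that cells switch on after they sense an interferon. They were chosen by name, as a set known from the biology of interferon signalling, with earlier results of these data known, and all 34 were found by symbol among the 23337 genes of the expression table. Expression was measured by RNA-seq in endothelial cells of the mouse spleen, sorted as CD31+ CD45- cells after collagenase digestion and labelled as blood endothelial cells. The 6 libraries are 3 of wild-type mice (WT 1, WT 3 and WT 4) and 3 of Stab1-/- mice (KO 2, KO 3 and KO 4), all on the C57BL/6 strain and, per the labels, without any treatment named. Stab1 encodes stabilin-1, or Clever-1, a scavenger receptor of sinusoidal endothelium, lymphatic endothelium and some macrophages. The labels name no Cre or promoter for the deletion. Age and sex are not given in the sources used here. Nor do the labels tie each library to a separate animal, so the p-values below rest on the spread between libraries alone, which may be technical.

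Type I and type III interferons are secreted by cells that detect viral or other foreign nucleic acid, and interferon-gamma by activated T cells and NK cells. Their receptors activate JAK kinases, which phosphorylate STAT factors. STAT2 and IRF9 are subunits of ISGF3, a complex that binds the interferon-stimulated response element (ISRE), while interferon-gamma acts through the GAS element. The induced genes encode sensors of foreign RNA, blocks on viral entry, translation and budding, and feedback regulators of the pathway. Endothelial cells carry the receptors for type I interferon and interferon-gamma.

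RefSeq promoters of GRCm38.p6, from 250 bases before to 50 bases after an annotated start, were at hand for 25 of the 34 genes. The ISRE core was searched as GAAANNGAAA and, on the other strand, TTTCNNTTTC. It occurred in the promoter of 15 of the 25 genes (60%), against 3.99% of all 27025 genes with a promoter. The GAS core TTCNNNGAA, which reads the same on both strands, occurred in 7 of 25 (28%), against 9.55% of all genes. An NF-kB core, GGGANNTTCC or GGAANNTCCC, occurred in 3 of 25 (12.0%), against 1.63%. The genes with an ISRE core were Bst2, Ddx58, Gbp2, Gbp3, Ifih1, Ifit1, Ifit3, Ifitm3, Igtp, Irgm1, Isg15, Oas1a, Oas3, Rsad2 and Stat2. A match is a description of the letters and not a measured binding site. The stretches below are shown because they hold these letters upstream of the start, on the strand of the gene and from 5′ to 3′, with the ISRE core in capitals and, for Irf1, the GAS core.
Isg15: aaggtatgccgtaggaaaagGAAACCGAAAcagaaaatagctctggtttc
Ifit1: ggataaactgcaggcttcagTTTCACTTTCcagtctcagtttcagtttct
Rsad2: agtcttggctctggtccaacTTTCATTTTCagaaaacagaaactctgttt
Bst2: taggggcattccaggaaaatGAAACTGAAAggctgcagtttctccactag
Stat2: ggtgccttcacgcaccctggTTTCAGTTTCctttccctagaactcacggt
Gbp2: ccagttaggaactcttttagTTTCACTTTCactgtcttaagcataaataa
Irgm1: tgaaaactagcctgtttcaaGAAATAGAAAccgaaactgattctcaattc
Igtp: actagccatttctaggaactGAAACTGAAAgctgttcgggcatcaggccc
Irf1: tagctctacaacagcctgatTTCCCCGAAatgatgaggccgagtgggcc
These stretches lie at chr4:156200861-156200910 on the minus strand (Isg15), chr19:34640765-34640814 on the plus strand (Ifit1), chr12:26456543-26456592 on the minus strand (Rsad2) and chr8:71537567-71537616 on the minus strand (Bst2). The Stat2 stretch is chr10:128270256-128270305, plus strand, the Gbp2 stretch chr3:142620584-142620633, plus strand, and the Irgm1 stretch chr11:48871421-48871470, minus strand. For Igtp it is chr11:58199502-58199551 and for Irf1 chr11:53769904-53769952, both on the plus strand. Isg15 holds 3 overlapping copies of the core between 78 and 57 bases upstream of its start, where the letters GAAA repeat every 6 bases. In Igtp, a GAS core ends 37 bases upstream of the start and the ISRE core begins 34 bases upstream.

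The genotype was visible in Stab1 itself, at 32.2 ± 11.0 RPKM (read density scaled by transcript length and library depth, mean ± SD, n = 3) in the wild type and 2.48 ± 0.15 in the knockout. The log2 fold change, knockout minus wild type, was -3.40 ± 0.22 (SE). The limma adjusted p was 7.146e-05, with an exact two-sided permutation p of 0.1, the smallest that 3 libraries against 3 can give. Depth was 41373583 to 52763009 reads counted to genes per library, as recovered from the deposited values, and WT 4, at 45897681, lay inside that range. Fits were made on log2(RPKM + 0.5), a scale that understates the change of low genes, for the 11035 genes that reached 1 RPKM in 3 libraries or more. Of these, 214 (1.94%) passed an adjusted p of 0.05 (limma, Benjamini-Hochberg over all genes tested), 74 higher and 140 lower in the knockout. The 9 endothelial markers summed to 2150 to 2740 RPKM per library and none was at 0 in any library. The lowest sum was that of WT 4, where 4 of the 9 were lowest and 2 highest of the 6 libraries.

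Of the 34 interferon-stimulated genes, 31 were high enough to test, and 0 of the 31 passed in either direction, beside 1.94% of all genes. At an unadjusted p under 0.05, 2 of the 31 (6.45%) were found against 15.7% of all genes, and the lowest adjusted p among them was 0.274, for Iigp1. Their median log2 fold change was -0.01 against 0.03 over all genes, with 17 negative and 14 positive, in a range from -0.81 to 0.31. The median SE of a log2 fold change was 0.20 for these genes and 0.16 for all genes, so a difference the size of that SE was not detectable here. The groups did not overlap for 2 of the 31, Irf1 and Ifih1, beside 20.3% of all genes without overlap. In 16 of the 31, all 3 knockout libraries lay between the lowest and the highest wild-type library, which held for 22.2% of all genes. In bulk RNA, fewer cells of one kind and less RNA per cell cannot be told apart.

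**Figure D1:**
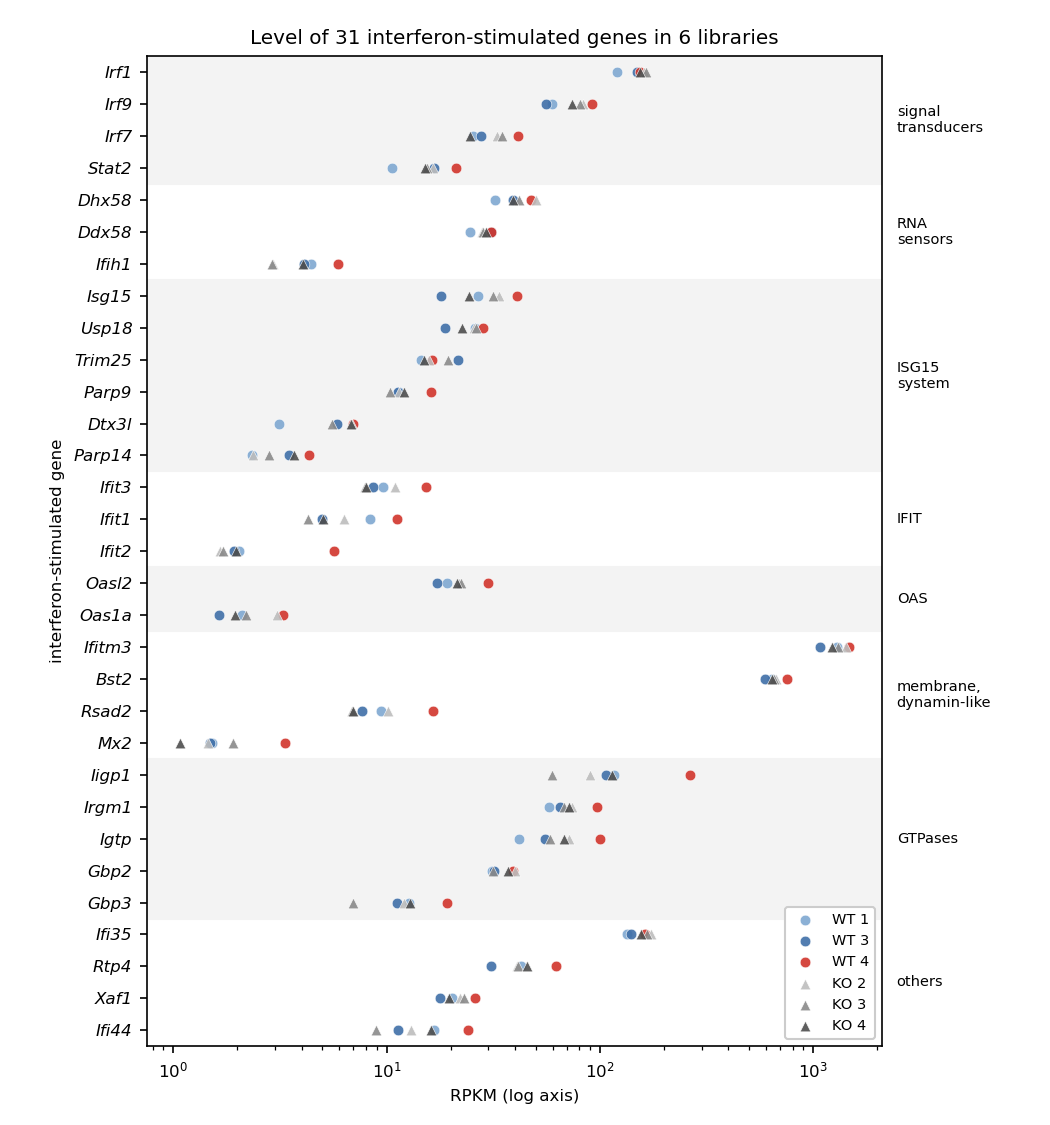
RPKM on a log axis for the 31 tested genes, grouped by role, with 1 point per library (circles wild type, triangles knockout, WT 4 in red). Levels run from 1.08 RPKM for Mx2 to 1465 RPKM for Ifitm3, and the red circle is the rightmost point for 25 of the 31 genes.

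The basal levels of these genes spanned 3 orders of magnitude in RPKM, which is per transcript length. Ifitm3 and Bst2 were the highest, at percentiles 99.9 and 99.7 of all genes of the table by their wild-type mean. Iigp1 (97.9), Ifi35 (97.6), Irf1 (97.5), Irgm1 (94.5), Irf9 (94.1), Igtp (93.8) and Rtp4 (91.0) followed. The lowest tested genes were Mx2 and Oas1a, at percentiles 58.4 and 59.1. Mx1, Oas2 and Oas3 were too low to test. Mx1, the dynamin-like block on influenza virus whose gene is defective in C57BL/6 and most other laboratory strains, had 0, 1 and 14 reads in the wild-type libraries and 17, 6 and 6 in those of the knockout. Oas2 had 41, 74 and 80 reads in the wild type and 67, 15 and 6 in the knockout, and Oas3 had 0, 4 and 10 against 0 in each knockout library. The Oas2 counts of KO 2 lay within the wild-type range and those of KO 3 and KO 4 below it. In the authors' deposited table its log2 fold change was -1.73, with an adjusted p of 0.271.

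Among the signal transducers and transcription factors, Irf1, Irf9, Irf7 and Stat2, 0 of 4 passed and the median log2 fold change was 0.10. Irf1, an activator induced mainly through the GAS element shown above, had wild-type levels of 119.9 (WT 1), 149 (WT 3) and 154 RPKM (WT 4) and knockout levels of 160.3 (KO 2), 164 (KO 3) and 155 (KO 4). Values of the other genes follow in the same order of libraries. All 3 knockout libraries were above all 3 wild-type libraries, by a small margin over WT 4 and with WT 1 lowest. The log2 fold change was 0.18 ± 0.11, with an adjusted p of 0.428. Irf9, the DNA-binding subunit of ISGF3, was at 59.9, 56.2 and 91.7 RPKM in the wild type and at 83.2, 81.1 and 74.3 in the knockout. The knockout libraries sat between WT 4 and the other 2 wild-type libraries, so the groups overlapped. Its log2 fold change was 0.23 ± 0.17 (adjusted p 0.521), and without WT 4 it was 0.45 (adjusted p 0.139), the lowest adjusted p of any of these genes without that library. Irf9 lies on chromosome 14, as Stab1 does, 24.4 Mb away. Irf7, the amplifier of interferon-alpha genes, ranged from 24.6 RPKM (KO 4) to 41.3 (WT 4), and Stat2 from 10.6 (WT 1) to 21.1 (WT 4), with log2 fold changes of -0.01 and 0.01.

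The RNA sensors are MDA5 (Ifih1), which binds long double-stranded RNA, RIG-I (Ddx58), which binds 5′-triphosphate RNA, and their regulator LGP2 (Dhx58). None of the 3 passed, and their median log2 fold change was -0.01. Ifih1 was at 4.41, 4.085 and 5.90 RPKM in the wild type and at 2.95, 2.90 and 4.078 in the knockout. Every knockout library was below every wild-type library, but KO 4 was all but level with WT 3. The log2 fold change was -0.47 ± 0.20, with an unadjusted p of 0.0382 and an adjusted p of 0.286. Dhx58, the most abundant of the sensors, was at 32.1, 39.4 and 47.3 RPKM in the wild type and 50.1, 41.9 and 39.3 in the knockout. KO 2 was highest and WT 1 lowest, the groups overlapped, and the log2 fold change was 0.15 ± 0.15 (adjusted p 0.637). Ddx58 ranged only from 24.6 RPKM (WT 1) to 30.9 (WT 3), with a log2 fold change of -0.01 ± 0.12.

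The ISG15 system attaches a ubiquitin-like protein to targets (Isg15), removes it (Usp18, also a brake on the type I receptor), and includes the E3 ligase Trim25, which activates RIG-I. Parp9, Dtx3l and Parp14, which encode factors of ADP-ribosylation or ubiquitin ligation, are grouped with this system here. Of these 6 genes 0 passed, with a median log2 fold change of -0.00. Isg15 was at 26.7, 18.1 and 41.0 RPKM in the wild type and at 33.8, 31.5 and 24.5 in the knockout. WT 3 was lowest and WT 4 highest, with the whole knockout group in between. The log2 fold change was 0.13 ± 0.25 (adjusted p 0.825). It was 0.42 without WT 4 and -0.16 without WT 3. Dtx3l had the most positive value of all 31 genes, at 3.12, 5.84 and 6.97 RPKM in the wild type against 6.88, 5.58 and 6.81 in the knockout. WT 1 alone was low, and the log2 fold change was 0.31 ± 0.25 (adjusted p 0.567). Without WT 1 it was 0.00. Parp9, its partner, was at 11.4, 11.4 and 16.1 RPKM in the wild type and 11.5, 10.4 and 12.0 in the knockout. WT 4 alone was high, and the log2 fold change was -0.17 ± 0.16 (adjusted p 0.617). Parp14 was at 2.33, 3.48 and 4.35 RPKM in the wild type and 2.36, 2.83 and 3.66 in the knockout. WT 4 was highest and WT 1 lowest, with a log2 fold change of -0.16 ± 0.24 (adjusted p 0.768). Usp18 ranged from 18.9 RPKM (WT 3) to 28.3 (WT 4), and Trim25 from 14.4 (WT 1) to 21.7 (WT 3). The annotated spans of Parp9 and Dtx3l, head to head on chromosome 16, overlap by 558 bases, and the kit used keeps no strand information, so reads there cannot be assigned to one of them.

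The IFIT proteins, which bind foreign RNA and block its translation, had the lowest median of the role groups. The log2 fold changes of Ifit1, Ifit2 and Ifit3, neighbours on chromosome 19, were all negative, with a median of -0.55, and 0 of 3 passed. Ifit1 was at 8.34, 5.01 and 11.2 RPKM in the wild type and at 6.32, 4.29 and 5.03 in the knockout. The knockout libraries overlapped with WT 3 only, and the log2 fold change was -0.55 ± 0.26 (adjusted p 0.341). Ifit2 was at 2.04, 1.93 and 5.67 RPKM in the wild type and at 1.67, 1.70 and 1.97 in the knockout. Only WT 4 stood out, 2.86 times the mean of WT 1 and WT 3, the greatest such ratio of the 31 genes. The log2 fold change was -0.56 ± 0.33 (adjusted p 0.424) with all libraries and -0.13 without WT 4. Ifit3 was at 9.67, 8.67 and 15.3 RPKM in the wild type and at 10.9, 7.92 and 8.05 in the knockout. WT 4 was again highest, and the log2 fold change went from -0.28 ± 0.22 (adjusted p 0.549) to -0.04 without that library. The near-identical neighbour Ifit3b could share reads with Ifit3, so its level is uncertain.

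The OAS family makes 2′-5′ oligoadenylate, which activates RNase L to cut RNA. Oasl2 was at 19.2, 17.2 and 29.8 RPKM in the wild type and at 22.0, 22.3 and 21.3 in the knockout. The knockout libraries lay close together, between WT 4 and the other wild-type libraries, and the log2 fold change was 0.03 ± 0.18 (adjusted p 0.955). Oas1a, whose near copies Oas1b, Oas1c and Oas1g could share its reads, ranged from 1.63 RPKM (WT 3) to 3.27 (WT 4), with a log2 fold change of 0.06 ± 0.25. Neither passed, and the other members, Oas2 and Oas3, were near 0.

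The restriction factors at membranes include Ifitm3, which blocks fusion of viruses in endosomes, Bst2 (tetherin), which holds budding virions at the cell surface, and Rsad2 (viperin), which makes a chain-terminating nucleotide. With the dynamin-like Mx2 they gave 0 of 4 passing and a median log2 fold change of -0.18. Ifitm3 was at 1295, 1081 and 1465 RPKM in the wild type and at 1419, 1300.0 and 1229 in the knockout, with overlapping groups and a log2 fold change of 0.05 ± 0.12 (adjusted p 0.871). Bst2, a sensitive marker of type I interferon in many cell types, ranged from 592 RPKM (WT 3) to 750.0 (WT 4), and its 3 knockout libraries from 644 to 666. Its log2 fold change was -0.00 ± 0.10. Rsad2 was at 9.44, 7.64 and 16.5 RPKM in the wild type and at 10.2, 6.86 and 6.97 in the knockout. WT 4 alone was high, and the log2 fold change was -0.41 ± 0.26 (adjusted p 0.469), or -0.10 without WT 4. Mx2 was at 1.52, 1.49 and 3.35 RPKM in the wild type and at 1.46, 1.90 and 1.08 in the knockout. WT 4 was highest, the other 5 libraries overlapped, and the log2 fold change was -0.35 ± 0.28 (adjusted p 0.567), or -0.04 without it.

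The GTPases strongly induced by interferon-gamma take part in the defence against microbes held in vacuoles. They comprise the guanylate-binding proteins Gbp2 and Gbp3, near each other on chromosome 3, and the immunity-related GTPases Irgm1, Igtp and Iigp1. None of the 5 passed, and the median log2 fold change was -0.01. Iigp1 was at 116.2, 106.9 and 265 RPKM in the wild type and at 89.8, 59.6 and 114 in the knockout. WT 4 held 2.38 times the mean of WT 1 and WT 3, and KO 4 lay between those 2 libraries. Its log2 fold change of -0.81 ± 0.33 was the most negative of the 31 genes, with an unadjusted p of 0.0346 and an adjusted p of 0.274. Without WT 4 it was -0.39 (adjusted p 0.550) and with library quality weights -1.45 (0.00296). Gbp3 was at 12.7, 11.2 and 19.1 RPKM in the wild type and at 12.1, 6.97 and 12.9 in the knockout. WT 4 was high and KO 3 low, and the log2 fold change was -0.42 ± 0.25 (adjusted p 0.436). Igtp was at 41.9, 55.1 and 100.2 RPKM in the wild type and at 72.0, 58.4 and 67.9 in the knockout. The knockout group lay inside the wild-type range, and the log2 fold change was 0.10 ± 0.26 (adjusted p 0.872). It was 0.45 without WT 4 and -0.17 without WT 1. Gbp2 was at 31.3, 31.7 and 39.2 RPKM in the wild type and 39.8, 31.5 and 37.2 in the knockout, with a log2 fold change of 0.09 ± 0.13 (adjusted p 0.766). Irgm1 ranged from 57.7 RPKM (WT 1) to 96.5 (WT 4) and from 67.6 to 74.1 within the knockout.

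The remaining genes were Ifi35, Rtp4, Xaf1 and Ifi44, of which 0 of 4 passed. Ifi35, a partner of Nmi, was at 134, 139.9 and 163 RPKM in the wild type and at 174, 166 and 155 in the knockout. KO 2 was highest and KO 4 was below WT 4, and the log2 fold change of 0.18 ± 0.10 had an adjusted p of 0.402. Ifi44 was at 16.6, 11.3 and 24.1 RPKM in the wild type and at 13.0, 8.92 and 16.1 in the knockout. WT 4 was highest and KO 3 lowest, with a log2 fold change of -0.41 ± 0.27 (adjusted p 0.478). Rtp4, a receptor transporter protein, ranged from 30.8 RPKM (WT 3) to 62.5 (WT 4), and its knockout libraries from 41.1 to 45.4. Xaf1, a cell death factor, ranged from 17.8 RPKM (WT 3) to 25.9 (WT 4).

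**Figure D2:**
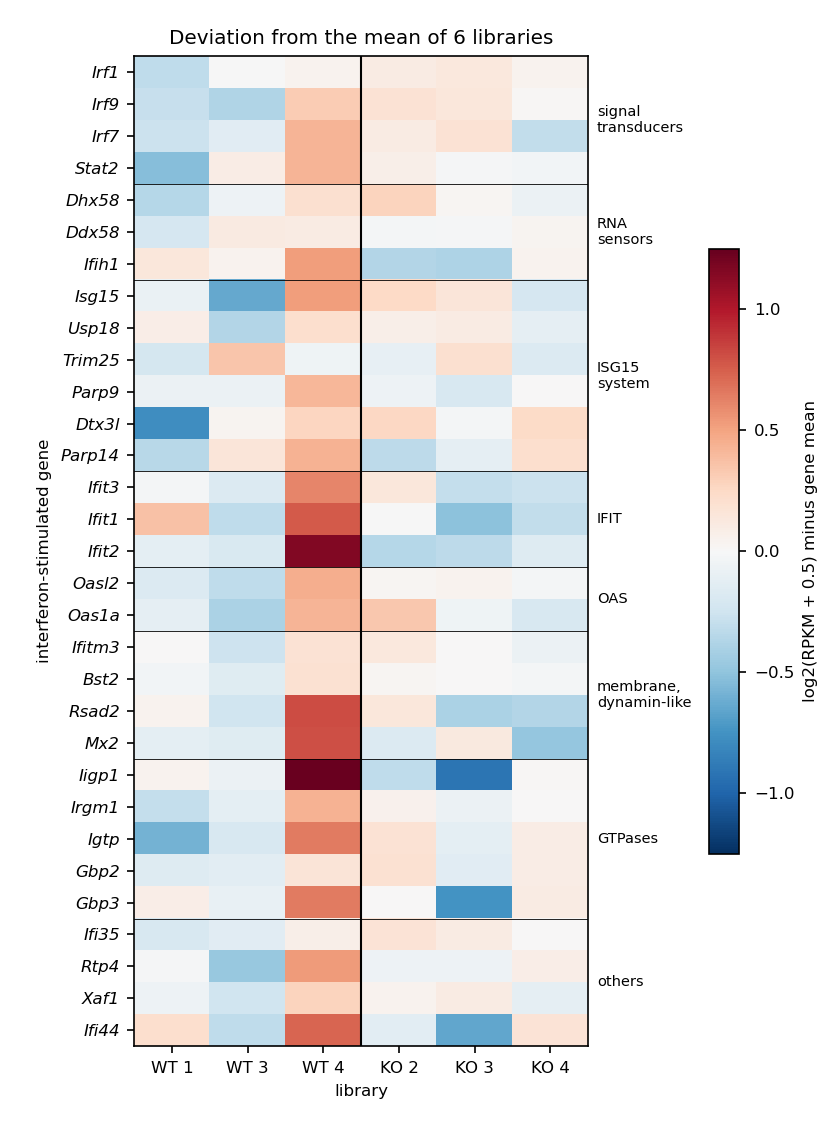
Each cell is log2(RPKM + 0.5) in 1 library minus the mean of that gene over the 6 libraries, for the 31 tested genes grouped by role; red is above the mean and blue below. The WT 4 column is red for nearly every gene, with its median at 0.43, while the other 5 columns have medians between -0.15 and 0.06.

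The pattern that these genes shared was a difference between libraries of the wild type. WT 4 was the highest of the 6 libraries for 25 of the 31 genes (80.6%) and the lowest for 0. Over all genes it was highest for 15.3% and lowest for 15.3%. The exceptions were Ddx58 and Trim25, highest in WT 3, Dhx58, Ifi35 and Gbp2, highest in KO 2, and Irf1, highest in KO 3. The median deviation from the mean of 6 libraries was 0.43 on the log2 scale in WT 4, -0.12 in WT 1 and -0.15 in WT 3. It was 0.06 in KO 2, -0.03 in KO 3 and -0.02 in KO 4, and between -0.01 and 0.03 in each library over all genes. WT 1 and WT 3 shared the lowest values of 20 of the 31 genes, and the other 11 were lowest in a knockout library. WT 1 was lowest for 11 of the 31 (35.5%), beside 26.7% of all genes, and WT 3 for 9 (29.0%), beside 17.5%. These counts were taken after the values were seen, so they describe the libraries and carry no test.

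By ratio, WT 4 held at least 1.5 times the mean of WT 1 and WT 3 for 18 of the 31 genes (58.1%), against 2.27% of all genes. The median ratio was 1.56, against 0.998 over all genes. After Ifit2 and Iigp1 came Mx2 (2.23), Igtp (2.07), Rsad2 (1.93) and Isg15 (1.83), and the lowest ratio was that of Trim25 (0.90). The wild-type SD on the log2 scale was above the knockout SD for 30 of the 31 genes (96.8%), Gbp3 being the exception, against 60.9% of all genes. The median SD was 0.39 in the wild type and 0.16 in the knockout for these genes, and 0.18 and 0.14 for all genes.

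Among the 24 tested genes with a promoter in the table, the 14 with an ISRE core had a median deviation of 0.48 in WT 4, in a range from 0.10 to 0.82, and 12 were highest there. The 10 without it had a median of 0.30, in a range from -0.05 to 1.16, and 7 were highest there. The ranges overlapped widely, and Ifit2, without the core in its 300 bases, had the highest value.

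**Figure D3:**
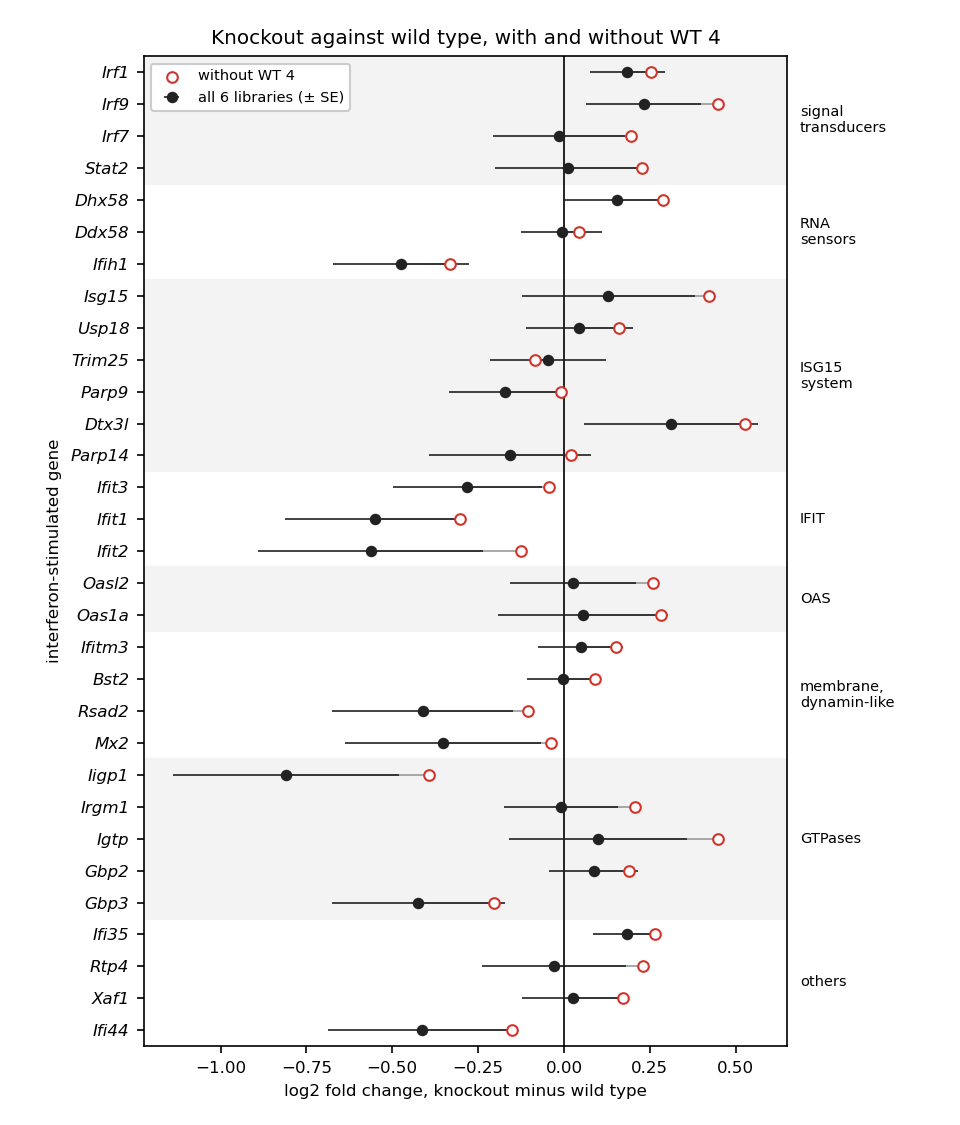
Log2 fold change, knockout minus wild type, of the 31 tested genes with all 6 libraries (black, ± SE) and without WT 4 (open red circles). The open circle lies to the right of the black point for every gene but Trim25, and the median goes from -0.01 to 0.16.

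The median moved with whichever wild-type library was left out. Without WT 4 the median log2 fold change of the 31 genes was 0.16, with 20 positive, and over all genes it stayed at 0.03. Without WT 1 the median was -0.15 and without WT 3 it was -0.12. No gene of the 31 passed in any fit that left out 1 library, and the lowest adjusted p in these fits was 0.1003, without WT 3. When limma weighted the libraries by their estimated quality, WT 4 received the highest weight (4.19) and WT 1 the lowest (0.34). That fit called 33.1% of all genes and 12 of the 31 (38.7%), each lower in the knockout, namely Gbp3, Ifi44, Ifih1, Ifit1, Ifit2, Ifit3, Iigp1, Mx2, Parp14, Parp9, Rsad2 and Rtp4.

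The other genes of the pathway did not all share this pattern. The interferon genes themselves were at or near 0, with 0 of 12 high enough to test and 11 of 12 at 0 in every library. The exception was Ifnb1 (interferon-beta), listed at 0.03 RPKM in WT 1 (1 read), at 0.11 in WT 4 (4 reads) and otherwise at 0. So few reads do not allow a comparison of the libraries. Of the receptors, JAK kinases and related factors, 10 of 11 were tested and 0 passed, with a median log2 fold change of 0.06. The kinase Tyk2 had the smallest p, at 2.92, 5.12 and 3.37 RPKM in the wild type and 6.85, 5.61 and 4.75 in the knockout (log2 fold change 0.55, adjusted p 0.263). Stat3, Ifngr1 and Jak1 followed, with log2 fold changes of 0.23, -0.13 and 0.16 and adjusted p of 0.462, 0.492 and 0.518. The receptor subunits Ifnar1 (14.8 RPKM in WT 4) and Ifnar2 (46.0) were lowest in WT 4 of all 6 libraries.

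Of the inducers of interferon, 19 of 23 were tested and 0 passed, with a median of 0.15 and WT 4 highest for 1. Rnaseh2c, Tlr3, Rnaseh2b and Irf3 had the smallest p, with log2 fold changes of 0.29, -0.52, -0.33 and 0.18 and adjusted p of 0.228, 0.261, 0.332 and 0.386. Of the 12 brakes on signalling, all were tested, 0 passed, and the median was -0.09. Tnfaip3, Ptpn6, Trim24 and Ptpn2 led them, with log2 fold changes of 0.40, -0.91, -0.36 and -0.43 and adjusted p of 0.224, 0.303, 0.329 and 0.361.

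A longer list of other interferon-induced genes held 60 entries, of which 58 were matched and 49 tested. Their median log2 fold change was -0.07, and 1 of the 49 passed, beside 1.94% of all genes. WT 4 was highest for 30 of the 49 (61.2%), with a median deviation of 0.28, and held at least 1.5 times the mean of WT 1 and WT 3 for 11 (22.4%). The gene that passed was Samd9l, a restriction factor of poxviruses, at 12.6, 16.2 and 18.8 RPKM in the wild type and 9.22, 7.004 and 8.34 in the knockout. The groups did not overlap, and the log2 fold change was -0.90 ± 0.17, with an adjusted p of 0.0310. The call held without WT 1 (0.0165) and was lost without any other single library, with adjusted p of 0.05002 without KO 4, 0.0785 without WT 3, 0.0804 without KO 2, 0.128 without WT 4 and 0.150 without KO 3. It was also lost with no filter on low values (0.118) and once trends in GC content and length were removed (log2 fold change -0.53, adjusted p 0.147). Gm4951, a near copy of Iigp1, was at 31.9, 24.1 and 47.8 RPKM in the wild type and 18.7, 14.4 and 23.6 in the knockout, with a log2 fold change of -0.83 and an adjusted p of 0.144. Reads of Gm4951 and Iigp1 could be exchanged between them. Sp100 and Gbp7, next by p, had log2 fold changes of -0.35 and -0.79 and adjusted p of 0.147 and 0.164.

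**Figure D4:**
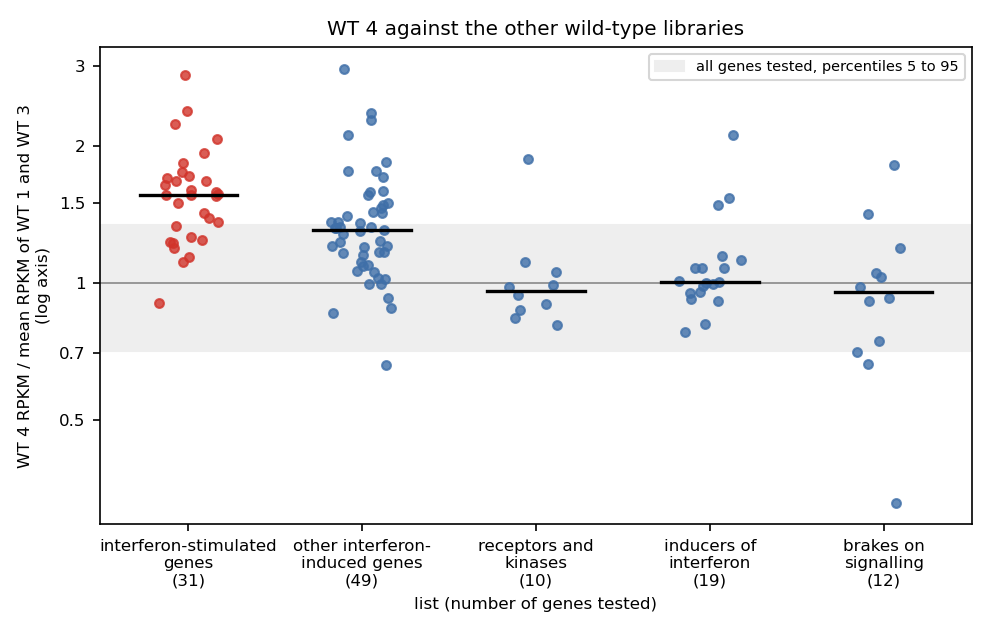
RPKM in WT 4 divided by the mean RPKM of WT 1 and WT 3, on a log axis, for each tested gene of 5 lists; black bars are medians and the grey band spans percentiles 5 to 95 of all genes tested (0.71 to 1.34). The interferon-stimulated genes (median 1.56) and the other interferon-induced genes (1.30) lie above the medians of the receptors (0.96), inducers (1.0) and brakes (0.95).

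Markers of other cells were compared between the libraries. Those of plasmacytoid dendritic cells, potent producers of type I interferon, summed to at most 0.52 RPKM over 6 genes in any library, and to 0.37 in WT 4. T cell markers summed to at most 0.23 RPKM over 5 genes (0.11 in WT 4), B cell markers to at most 1.80 over 5 genes (1.16 in WT 4) and NK cell markers to at most 0.95 over 4 genes. The NK cell sums were 0.41, 0.21 and 0.80 in the wild type and 0.95, 0.52 and 0.43 in the knockout, so WT 4 was the highest of the wild type there, below KO 2. Prf1 was highest in WT 4 of all 6 libraries, at 0.79 RPKM. Macrophage markers summed to 38.0, 48.7 and 27.4 RPKM over 11 genes in the wild type and to 26.4, 27.6 and 36.9 in the knockout. The sum of WT 4 was the lowest of the wild type, but it rested mainly on Mrc1 and Lyz2. Mrc1 was at 14.6, 21.7 and 13.1 RPKM in the wild type and Lyz2 at 14.7, 18.8 and 7.25. Adgre1, C1qb and C1qc, each under 1 RPKM, were instead highest of the wild type in WT 4. Megakaryocyte markers summed to 112, 216 and 75.9 RPKM over 6 genes in the wild type and 46.7, 49.9 and 61.7 in the knockout, and neutrophil markers were highest in WT 3 (16.1) and at 0.43 in WT 4. Erythroid markers summed to 48.7, 43.6 and 8.02 RPKM over 5 genes in the wild type and 17.0, 2.69 and 1.47 in the knockout, and reticular markers to 98.6, 37.0 and 33.6 over 6 genes against 60.4, 43.0 and 34.9. Early response genes of dissociation summed to 5480 RPKM over 10 genes in WT 4, the lowest library, and to 5710 to 6900 in the other 5. In WT 4, 7 of the 10 were lowest of the 6 libraries, and the other way 2 were highest, Hspa1a (616 RPKM) and Hspa1b (926). The part of the NK cell, macrophage, megakaryocyte, erythroid, reticular and early response values in the differences between libraries was not tested.

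In the authors' deposited table of the same comparison, 32 of the 34 genes were listed, without Mx1 and Oas3. The lowest adjusted p among them in the authors' deposited table was 0.246, for Ifih1, and 18 of the 32 had negative log2 fold changes. None of the 34 was in the authors' deposited lists of 34 higher and 117 lower genes.

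Of the 31 tested genes, 10 lay within 1 Mb of a gene that passed, while this held for 20.4% of the 10131 tested genes with a position. The 10 are not separate positions. Parp9, Dtx3l and Parp14, close together on chromosome 16, were all counted for the same gene, Slc15a2, at 0.78, 0.81 and 0.88 Mb. Stat2 lay 0.41 Mb from Cdk2, which was much higher in the knockout (log2 fold change 3.51), and Irf9 lay 0.82 Mb from Slc7a8 (1.97), on the chromosome of Stab1. Irf1, whose groups did not overlap, lay 0.06 Mb from Rad50 (-0.94). The spans of Stat2 and Apof overlap by 753 bases and those of Rtp4 and Masp1 by 1022 bases, so their reads may be mixed where they overlap.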

How the data were processed

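RNA-seq was made from amplified complementary DNA (SMART-Seq v4, then Nextera XT), per the labels' protocols. Named in the submitters' processing notes are the mm10 build and the tools STAR 2.5.2b, limma, edgeR and Subread, with no order or settings. The authors deposited expression as RPKM, per the file headers. They also deposited log2 fold changes with raw and adjusted p-values, per the file headers. Column numbers in the deposited table differ from the replicate numbers of the labels, so columns were mapped to a genotype and keep their own number. All 17683 genes above 0 gave whole reads in each library within 0.001 of a read, from which depth was recovered; lengths of GENCODE transcripts set the scale where a gene's reads shared a factor. For genes above a few RPKM, counting error is small at this depth.

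Values of log2(RPKM + 0.5) of genes that reached 1 RPKM in 3 libraries or more were fitted with limma 3.58.1 in R 4.3.3 (intensity trend, Benjamini-Hochberg, threshold 0.05), checked on simulated data. Stab1 was also tested by exact permutation in Python 3.11.15 with scipy 1.17.1. The genes, lists and roles were chosen with earlier results of these data known. Values in every library are given for the 20 genes of smallest p and the most abundant of each role. Up to 4 genes of smallest p are named from each other list. Further names (Ifnar1, Ifnar2 and the genes singled out by library or position) were chosen after their values were seen. Of the pathway entries, 110 matched by symbol, 6 by an older symbol and 2 did not. Of the marker entries, 71 matched by symbol, 1 by an older symbol and 2 did not. Positions and promoters came from RefSeq GRCm38.p6, positions matched by gene ID and promoters by symbol. Length and GC content came from GENCODE transcripts for 91% of tested genes. Near copies and overlapping genes are uncertain. Some results of these lists are not reported here. No pair of replicate libraries agreed within sampling noise (lowest chi-square per degree of freedom 32.3).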

Additional observations from a re-analysis of the deposited data

How the results depend on the processing

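Against 74 genes higher and 140 lower, the counts over all genes were 31 and 46 when low genes were not filtered out, 1772 and 1881 with library quality weights, and 111 and 244 with a replicate block. Leaving out 1 library gave 16 to 68 higher genes, fewest without KO 3, and 32 to 347 lower genes, most without KO 4. The total was 155 without WT 1, 150 without WT 3 and 84 without WT 4. Dropping a knockout library gave 64 (KO 2), 48 (KO 3) and 406 (KO 4). Of the interferon-stimulated genes, 12 were lower with quality weights, 2 with the block (Gbp3, adjusted p 0.0471, and Iigp1, 0.00218) and 0 under every other alternative run, where the lowest adjusted p was 0.1003. Their median log2 fold change was -0.29 with quality weights and ran from -0.15 to 0.16 when 1 library was left out. The block used the numbers of the deposited columns, which only 3 and 4 share across genotypes. Within-group deviations of WT 3 and KO 3, and of WT 4 and KO 4, correlated at 0.193. No correlation of libraries with different numbers is given beside it, so this value cannot show whether a shared number marks a pair. The numbers are also not those of the labels. The loss or gain of a call under the block is therefore not read further. With the block, the sign turned for Igtp (-0.238), Dhx58 (-0.089), Dtx3l (-0.046), Xaf1 (-0.014), Oasl2 (-0.057), Oas1a (-0.143), Stat2 (-0.287) and Gbp2 (-0.042). With quality weights it turned for Isg15 (-0.201), Ifitm3 (-0.044), Xaf1 (-0.163), Gbp2 (-0.009), Usp18 (-0.088), Oasl2 (-0.320), Igtp (-0.385), Oas1a (-0.118), Stat2 (-0.290) and Irf9 (-0.061). After removal of GC and length trends it turned for Parp14 (0.096), Stat2 (-0.088), Oas1a (-0.003), Ddx58 (0.019), Oasl2 (-0.016) and Irgm1 (0.049), and with median centring for Ddx58 (0.004), Bst2 (0.007) and Irgm1 (0.002). None of these turned values passed, and the cause was not tested. Leaving out 1 library turned the sign of 15 genes, with ranges of -0.157 to 0.423 for Isg15, -0.151 to 0.195 for Irf7, -0.255 to 0.226 for Stat2, -0.128 to 0.283 for Oas1a, -0.129 to 0.258 for Oasl2, -0.127 to 0.161 for Usp18, -0.113 to 0.048 for Ddx58, -0.079 to 0.091 for Bst2, -0.171 to 0.115 for Trim25, -0.092 to 0.172 for Xaf1, -0.367 to 0.020 for Parp14, -0.276 to 0.229 for Rtp4, -0.068 to 0.151 for Ifitm3, -0.161 to 0.207 for Irgm1 and -0.174 to 0.450 for Igtp. The other pseudocounts, filters, robust variances, quantile normalization and voom on recovered reads turned none. WT 4 was highest for 25 to 27 of the 31 genes under other pseudocounts, median centring, quantile normalization and removal of GC and length trends, alternatives added after seeing the data. Genes at a few RPKM, such as Mx2, Oas1a and Ifit2, rest on the fewest reads.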
